A study of Mus musculus with 6 samples.

Results

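Ribosomal protein gene promoters were examined for chromatin accessibility in mouse nephron progenitor cells, the self-renewing cells of the outer kidney that give rise to the epithelium of the nephrons. Cells were taken from CD1 litters at E14.5, in midgestation, or at birth (P0), and each stage was represented by 3 libraries. No allele, transgene or treatment is named for any group, so the stage was the only labelled difference. Each library came from up to 24 pooled kidneys of 1 litter, and the cells were drawn out on magnetic beads by Itga8, an integrin at their surface. The 50000 cells per library were therefore a positive selection from a cortical digest and not a sort on several markers. In the assay, ATAC-seq, the transposase Tn5 cuts and tags accessible DNA, so that a region's count rises with its openness.

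The members were the distinct regions that the deposited annotation lists as the promoter of a gene named Rpl or Rps and a digit, or Rpsa, Rplp0, Rplp1 or Rplp2. Names of the S6 kinases and of pseudogenes were dropped. This gave 46 of 43523 regions, or 46 of the 14097 listed as a promoter, for 45 gene names (Rpl18 had 2 regions). The table lists 1 promoter gene for each region. Of the 46, 42 belong to core ribosomal proteins and 3 to paralogs or relatives (Rpl22l1, Rps27l and Rps4y2). The remaining one, Rps19bp1, encodes a binding partner of Rps19 that the name rule also catches.

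The ribosome is built from a small and a large subunit, whose proteins carry the prefixes Rps and Rpl, assembled on ribosomal RNA in the nucleolus. The genes are scattered over the genome and are transcribed in nearly all cells, and their mRNAs typically start with a cytosine followed by an unbroken run of pyrimidines, the 5′ terminal oligopyrimidine (TOP) tract, through which mTOR signalling adjusts their translation. Loss of 1 copy of several of these genes causes Diamond-Blackfan anaemia, a failure of red blood cell production that can come with malformations, among them of the urinary tract.

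Sequences around the transcription start are shown for 13 members, chosen to show the lowest fold change (Rplp0), the steadiest region (Rpl38), the highest level per length (Rpl22l1) and the types of start described in this report. Each runs from 80 bases before to 20 after the first start that RefSeq lists (GRCm38.p6, the mm10 genome), on the strand of the gene, so that the start itself is the base after the 80th. Capitals mark matches to the searched motifs and the pyrimidine run at the start.
Rpl28 (chr7:4792885-4792984, plus strand): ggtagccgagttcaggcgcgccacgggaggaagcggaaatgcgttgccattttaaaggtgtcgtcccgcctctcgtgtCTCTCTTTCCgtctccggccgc
Rpl35 (chr2:39005112-39005211, minus strand): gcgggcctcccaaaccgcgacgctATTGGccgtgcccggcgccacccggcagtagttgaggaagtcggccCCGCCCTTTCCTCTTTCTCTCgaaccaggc
Rpl38 (chr11:114668500-114668599, plus strand): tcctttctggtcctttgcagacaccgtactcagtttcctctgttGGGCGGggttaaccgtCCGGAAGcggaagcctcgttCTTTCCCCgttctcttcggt
Rpl14 (chr9:120571437-120571536, plus strand): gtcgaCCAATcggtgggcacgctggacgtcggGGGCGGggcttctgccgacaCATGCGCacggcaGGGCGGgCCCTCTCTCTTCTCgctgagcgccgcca
Rps15a (chr7:118116128-118116227, minus strand): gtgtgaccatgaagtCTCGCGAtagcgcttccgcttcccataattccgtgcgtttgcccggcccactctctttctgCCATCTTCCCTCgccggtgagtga
Rps6 (chr4:86857348-86857447, minus strand): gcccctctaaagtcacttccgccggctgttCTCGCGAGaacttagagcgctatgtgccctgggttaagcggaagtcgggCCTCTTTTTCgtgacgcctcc
Rps7 (chr12:28635934-28636033, minus strand): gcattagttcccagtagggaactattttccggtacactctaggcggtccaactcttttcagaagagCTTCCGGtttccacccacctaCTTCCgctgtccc
Rpl22l1 (chr3:28805428-28805527, plus strand): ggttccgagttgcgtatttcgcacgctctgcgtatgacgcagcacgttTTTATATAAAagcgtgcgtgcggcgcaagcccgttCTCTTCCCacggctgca
Rplp0 (chr5:115559387-115559486, plus strand): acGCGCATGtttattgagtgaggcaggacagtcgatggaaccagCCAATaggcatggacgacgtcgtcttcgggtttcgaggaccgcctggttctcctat
Rpl22 (chr4:152325646-152325745, plus strand): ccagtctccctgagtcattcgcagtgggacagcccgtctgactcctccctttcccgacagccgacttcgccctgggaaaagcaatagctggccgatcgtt
Rpl11 (chr4:136053374-136053473, minus strand): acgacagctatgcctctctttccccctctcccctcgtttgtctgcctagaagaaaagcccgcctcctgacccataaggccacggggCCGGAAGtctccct
Rpl26 (chr11:68901486-68901585, plus strand): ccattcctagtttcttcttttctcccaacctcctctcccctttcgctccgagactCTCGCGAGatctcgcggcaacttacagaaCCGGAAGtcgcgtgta
Rps19 (chr7:24884512-24884611, plus strand): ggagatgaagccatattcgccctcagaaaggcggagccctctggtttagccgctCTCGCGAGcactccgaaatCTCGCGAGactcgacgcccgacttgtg

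In Rpl35 the run at the start is CCCTTTCCTCTTTCTCTC, in Rpl14 CCCTCTCTCTTCTC and in Rpl28 CTCTCTTTCC, the form of a TOP tract. Rpl38 combines a run with an ETS match and a GC box. Rpl22l1 pairs its run with TATA matches upstream. In Rplp0, Rpl22, Rpl11, Rpl26 and Rps19 no run began within 10 bases of the listed start, which may differ from the start used in these cells.

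Accessibility of the 46 regions at the 2 stages could not be told apart region by region. The edgeR quasi-likelihood test with Benjamini-Hochberg adjustment over all 43523 regions called 0 of 46 at an adjusted p of 0.05, against 4.73% of all regions and 0.851% of promoter regions (120 of 14097). At an unadjusted p under 0.05, edgeR counted 2 of the 46 (Rplp0 and Rpl22), against 18.7% of all regions and 8.73% of promoter regions. DESeq2's Wald test, which called 6.38% of all regions and 1.57% of promoter regions, and limma-voom, with 4.38% and 0.745%, also called 0 of 46, with 1 unadjusted p under 0.05 each. With 0.851% of promoters called, fewer than 1 call among 46 would arise at the promoters' own rate, so the 0 does not set the members apart from other promoters.

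The sizes of the differences were small. The median fitted log2 fold change, P0 against E14.5, was -0.11 over the 46 regions (quartiles -0.26 and 0.0017), beside -0.099 over all promoter regions and 0.0097 over all regions. Values ran from -0.48 at Rplp0 to 0.31 at Rpl30. In 17 of the 46 the fitted value was within 0.1 of 0. It was below 0 in 33 (71.7%), beside 66.0% of promoter regions. That split depends on the scaling: when libraries were scaled on promoter regions alone, 25 of 46 lay below 0 and the medians became -0.018 for the members and -0.0015 for all promoters, the median of all regions having moved up by 0.11. The members' median minus the promoters' median was -0.0065, and over 16 refits it ran from -0.059 to 0.017.

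The fit over all 6 libraries bounds the size of the changes. Standard errors of the log2 fold changes ran from 0.19 to 0.30, and the 95% intervals lay within a 2-fold change in either direction for 46 of 46 regions and within 1.5-fold for 18 of 46. This holds for that fit: without P0 replicate 3 the intervals of Rplp0, Rps15a and Rpl3, for example, reached past a 2-fold decrease, as did that of Rpl3 with DESeq2's Wald test. The lowest bound was -0.98 (Rpl3) and the highest 0.76 (Rpl8). At the others the interval reached beyond a 1.5-fold difference in at least one direction, so these 6 libraries leave room for a change of that size there. In simulated counts with 200 of 43522 regions changed 2-fold, the same test recovered 31.5%, with 9 false calls. The changed regions were drawn from all regions, whose median level was 14.3 CPM, against 19.6 CPM for the members. They were also fewer than the 2059 regions called in the real fit. The 31.5% is thus not the recovery rate at the members.

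**Figure D1:**
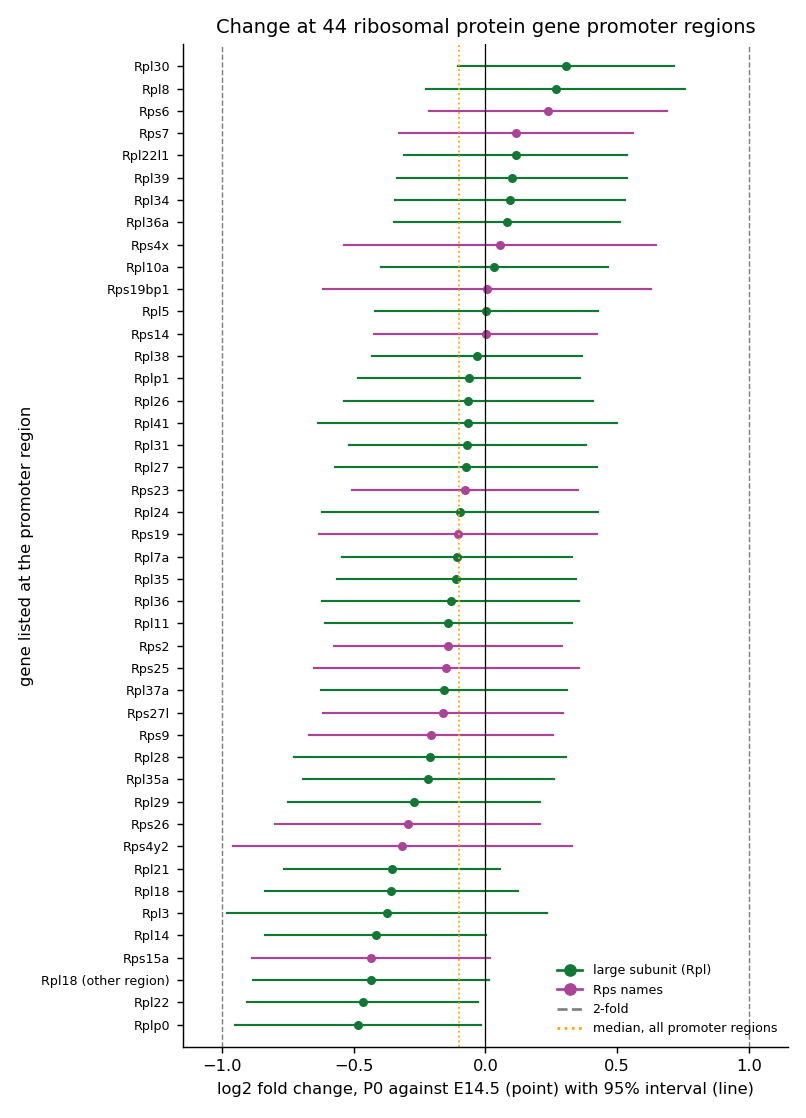
Fitted log2 fold change, P0 against E14.5, of 44 of the 46 regions (points; lines are 95% intervals), ordered by value, with Rpl and Rps names in different colours; dashed lines mark 2-fold and the dotted line the median of all promoter regions. All intervals drawn lie inside the 2-fold lines, and only those of Rplp0 and Rpl22 do not reach 0.

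Levels in CPM, counts scaled to TMM-adjusted library sizes, are given for replicates 1, 2 and 3 in that order, with means ± SD (n = 3 per stage). The lowest fold change belonged to Rplp0, the base of the ribosomal stalk that recruits translation factors (chr5:115558801-115559962). It measured 30.5, 19.7 and 23.6 CPM at E14.5 and 14.8, 16.8 and 20.8 CPM at P0, means of 24.6 ± 5.46 against 17.5 ± 3.08 CPM. The stages overlapped, because P0 replicate 3 exceeded E14.5 replicate 2. The log2 fold change was -0.48 (interval -0.95 to -0.018), with an edgeR unadjusted p of 0.043 and an adjusted p of 0.247. Without E14.5 replicate 1, the highest library, it was -0.30 (edgeR adjusted p = 0.628).

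Rpl22, a large subunit protein, gave the next lowest value (chr4:152325409-152326791), at 23.5, 19.4 and 17.6 CPM at E14.5 and 16.6, 13.8 and 13.5 CPM at P0. Each P0 library lay below each E14.5 library, though the gap between the nearest of them was small. Its log2 fold change was -0.47 (interval -0.90 to -0.027; edgeR adjusted p = 0.235, the lowest among the members). The region also holds the RefSeq start of 9430083M05Rik, so the count cannot be given to one start. At the promoter of its paralog Rpl22l1 (chr3:28804828-28806024), which can take the place of Rpl22 in the ribosome, the values were 49.9, 60.9 and 58.7 CPM at E14.5 and 61.8, 51.9 and 69.7 CPM at P0. There the stages overlapped and the log2 fold change was 0.12 (interval -0.31 to 0.54; edgeR adjusted p = 0.817). It was -0.0055 without P0 replicate 3, 0.22 without P0 replicate 2 and 0.034 when E14.5 replicate 1 was left out. This region too holds another RefSeq start, that of Gm32950.

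The other low values were at a region listed for Rpl18, at Rps15a and at Rpl14. The Rpl18 region concerned (chr7:45714609-45715623) holds a start of Sphk2 and none of Rpl18, and measured 26.1, 19.1 and 21.6 CPM at E14.5 and 15.8, 13.8 and 19.4 CPM at P0. The region with the start of Rpl18, which holds a start of Sphk2 as well, had a log2 fold change of -0.36 (edgeR adjusted p = 0.431). Rps15a, a small subunit protein (chr7:118115095-118117680), measured 21.1, 22.0 and 28.6 CPM at E14.5 and 15.3, 16.0 and 21.5 CPM at P0. Only P0 replicate 3 reached into the range at E14.5, and the log2 fold change was -0.43 (interval -0.88 to 0.018; edgeR adjusted p = 0.291). Without E14.5 replicate 3 it was -0.29. Rpl14, of the large subunit (chr9:120569884-120572436), gave 21.1, 17.6 and 22.7 CPM at E14.5 and 14.9, 15.9 and 15.2 CPM at P0. Here the stages did not overlap and the P0 libraries lay close together, with a log2 fold change of -0.42 (interval -0.84 to 0.0028; edgeR adjusted p = 0.271).

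At the other end of the order stood Rpl30, Rpl8, Rps6, Rps7 and Rpl22l1. Rpl30 (chr15:34442535-34444413) measured 39.1, 43.3 and 42.5 CPM at E14.5 and 56.7, 43.0 and 54.5 CPM at P0. P0 replicates 1 and 3 were above every E14.5 library and P0 replicate 2 was among them, giving a log2 fold change of 0.31 (interval -0.10 to 0.72; edgeR adjusted p = 0.429). Rpl8, which lies by the peptidyl transferase centre of the large subunit (chr15:76903782-76905954), measured 12.6, 9.37 and 13.4 CPM at E14.5 and 13.6, 12.4 and 16.2 CPM at P0, with overlapping stages. Its log2 fold change was 0.27 (interval -0.22 to 0.76; edgeR adjusted p = 0.592), and it was 0.11 when E14.5 replicate 2 was left out and 0.14 without P0 replicate 3.

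Rps6, the small subunit protein that S6 kinases phosphorylate (chr4:86856072-86858319), gave 31.7, 34.7 and 31.6 CPM at E14.5 and 38.9, 28.1 and 48.0 CPM at P0. The 3 E14.5 libraries were close together, while P0 replicate 2 was the lowest and P0 replicate 3 the highest of all 6. The log2 fold change was 0.24 (interval -0.21 to 0.69; edgeR adjusted p = 0.605), and it was 0.027 without P0 replicate 3 and 0.41 without P0 replicate 2. Rps7 (chr12:28634689-28636477) measured 13.0, 14.1 and 13.5 CPM at E14.5 and 13.4, 16.8 and 14.1 CPM at P0, a span narrower than at most members, with a log2 fold change of 0.12 (0.018 without P0 replicate 2).

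In 4 of the 46 regions (Rpl14, Rpl18, Rpl21 and Rpl22) every P0 library lay below every E14.5 library, and in 0 did every P0 library lie above. The same held for 12.1% and 4.63% of promoter regions and for 12.4% and 11.8% of all regions. The 4 of 46 are thus no larger a share than in promoters at large. Rpl21 and Rpl18 had log2 fold changes of -0.36 and -0.36.

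Libraries of the same stage differed more than the stages did. As a share of all counts in regions, the 46 regions held 0.110%, 0.107% and 0.117% in E14.5 replicates 1 to 3 and 0.107%, 0.0901% and 0.129% in P0 replicates 1 to 3. The lowest and the highest share were thus both at P0. Means were 0.111 ± 0.0051% at E14.5 and 0.109 ± 0.020% at P0 (n = 3 each), a difference of -0.0023 percentage points that is smaller than either SD. As each library was left out it ran from -0.0125 without P0 replicate 3 to 0.0071 without P0 replicate 2, and it was also above 0, at 0.00051, when E14.5 replicate 3 was left out. For P0 replicate 2 the 95% Wilson interval was 0.0878 to 0.0924% and for P0 replicate 3 it was 0.127 to 0.131%, counting error only.

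Part of the swing was common to promoters. All promoter regions held 62.2%, 56.1% and 60.6% of the counts in the E14.5 libraries and 56.2%, 53.4% and 59.1% in the P0 libraries. Within promoter counts the members still took 0.177%, 0.190% and 0.193% at E14.5 and 0.191%, 0.169% and 0.219% at P0. P0 replicate 2, which also had the fewest counts (6492996), was the lowest of the 6 libraries for 29 of 46 members (63.0%), beside 49.4% of promoter regions. P0 replicate 3, the deepest (12292629), was the highest for 16 members (34.8%), beside 27.1% of promoters. At E14.5 the order was the opposite: replicate 2, the deepest of that stage (11088627), had the lowest share, and replicate 3, the shallowest (8859856), the highest.

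The members' median deviation from their own mean log2 CPM was -0.29 in P0 replicate 2 and 0.19 in P0 replicate 3, beside -0.21 and 0.11 over all promoter regions. The median fold change of the members leaned on these libraries: it was -0.014 without P0 replicate 2 and -0.27 without P0 replicate 3. It was -0.19 without E14.5 replicate 2 and -0.064 without E14.5 replicate 3, and the count of members called was 0 in each of these refits.

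**Figure D2:**
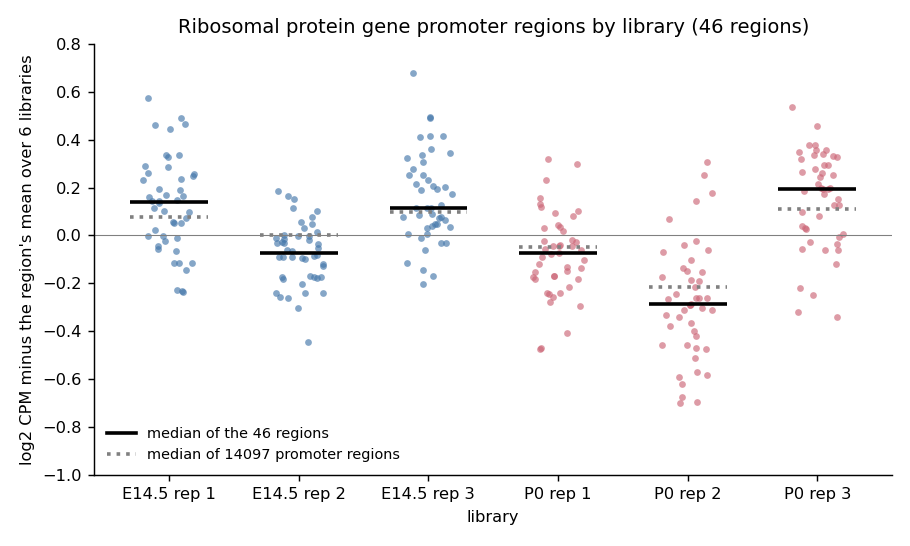
Each member's log2 CPM in a library minus its mean over the 6 libraries (points, one per region), with the median of the 46 regions (black line) and of all 14097 promoter regions (dotted). The members' median is lowest in P0 replicate 2 (-0.29) and highest in P0 replicate 3 (0.19), and the dotted medians lie on the same side in both.

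Among 15 regions of small subunit genes the median log2 fold change was -0.14, with 0 called by edgeR and 0 at an unadjusted p under 0.05. Among 30 regions of large subunit genes it was -0.10, with 0 called and 2 unadjusted, where promoters at large had 0.851% and 8.73%. DESeq2 and limma-voom called 0 in both groups. The Rps and Rpl values overlapped through most of their range, from -0.43 to 0.24 and from -0.48 to 0.31, and the groups were not tested against each other.

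The stalk was represented by Rplp0 and Rplp1. Rplp1 (chr9:61913562-61916238) measured 16.0, 15.7 and 17.5 CPM at E14.5 and 14.3, 16.8 and 16.1 CPM at P0, among the steadiest of the members. Its log2 fold change was -0.062 (interval -0.48 to 0.36), against -0.48 for Rplp0. That of Rplp1 ran from -0.11 without P0 replicate 2 to -0.013 without E14.5 replicate 3 as each library was left out, with -0.014 when P0 replicate 1 was left out, and was 0.050 with scaling over promoters. Rplp2, the partner of Rplp1, was not a member, since the region at its start is listed under Snora52. That region gave 14.47, 18.8 and 24.5 CPM at E14.5 and 13.8, 13.2 and 18.8 CPM at P0, overlapping values with a log2 fold change of -0.33 (edgeR adjusted p = 0.502). It was -0.12 without E14.5 replicate 3, -0.53 without P0 replicate 3 and -0.49 when E14.5 replicate 1 was left out.

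Rpl5 and Rpl11 bind 5S ribosomal RNA and, outside the ribosome, hold back Mdm2 and so raise p53. Rpl5 (chr5:107900317-107901634) measured 22.5, 19.5 and 20.9 CPM at E14.5 and 20.2, 17.6 and 24.9 CPM at P0, with a log2 fold change of 0.0021 (interval -0.42 to 0.43). Its sign turned with the library left out, from -0.16 (P0 replicate 3) to 0.11 (P0 replicate 2). Rpl11 (chr4:136052451-136054250) measured 13.2, 13.4 and 16.9 CPM at E14.5 and 15.0, 11.2 and 13.1 CPM at P0, with a log2 fold change of -0.14 (interval -0.61 to 0.33). For Rpl11 it was -0.016 without E14.5 replicate 3, -0.046 without P0 replicate 2 and -0.26 without P0 replicate 1. At both the stages overlapped and the edgeR adjusted p was 0.795 or more.

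Diamond-Blackfan anaemia genes accounted for 14 regions of 13 genes. Their median log2 fold change was -0.13, with 12 of 14 fitted below 0 (66.0% of promoter regions), 0 called by edgeR (0.851%) and 0 at an unadjusted p under 0.05 (8.73%). Rpl18 counts with both of its regions, and the one at -0.44 holds a start of Sphk2 and none of Rpl18. Starts of Rps24 (-0.23), Rpl15 (-0.095), Rps27 (-0.035) and Rps28 (0.075) lay in regions not listed under them. These disease genes are thus not counted here. Over all 46 regions the sign split depended on the scaling. Rps19, the gene most often mutated in that disease (chr7:24883602-24885161), measured 54.4, 41.7 and 61.7 CPM at E14.5 and 49.9, 32.1 and 64.0 CPM at P0. The lowest and the highest of the 6 values were P0 replicates 2 and 3, so that the P0 spread spanned the E14.5 libraries, and the log2 fold change was -0.10 (interval -0.63 to 0.42). It was 0.12 without P0 replicate 2, 0.025 without E14.5 replicate 3, -0.37 without P0 replicate 3 and -0.26 when E14.5 replicate 2 was left out.

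Rpl38, whose loss of 1 copy in the Tail short mouse alters the axial skeleton and the translation of Hox mRNAs, was the steadiest region (chr11:114667808-114670050). It measured 18.1, 18.3 and 19.2 CPM at E14.5 and 18.0, 17.6 and 18.7 CPM at P0. All 6 values lay between 17.6 and 19.2 CPM. The within-stage SD of log2 CPM was 0.044, and the log2 fold change was -0.033 (interval -0.43 to 0.37). That value, close to 0, ran from -0.075 without P0 replicate 3 to -0.0096 without E14.5 replicate 3 as each library was left out, with -0.013 when P0 replicate 2 was left out, and was 0.024 with total-count scaling and 0.072 with scaling over promoters. It was also the only member that overlapped a FANTOM enhancer in the deposited annotation (2.17% of members, beside 11.8% of promoter regions).

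Rpl3, a protein at the peptidyl transferase centre, had the widest spread (chr15:80082550-80084336): 12.9, 9.63 and 18.5 CPM at E14.5 and 10.8, 7.11 and 13.2 CPM at P0. E14.5 replicate 3 was the highest and P0 replicate 2 the lowest, and the stages overlapped. Its log2 fold change was -0.37 (interval -0.98 to 0.23; edgeR adjusted p = 0.531). Leaving out one library moved it to -0.10 (E14.5 replicate 3), -0.18 (P0 replicate 2), -0.59 (E14.5 replicate 2) or -0.60 (P0 replicate 3). Rps19bp1, with a within-stage SD of 0.45, and Rpl41, which encodes a very short basic protein, with 0.42, followed. Over all members the median within-stage SD of log2 CPM was 0.227, beside 0.217 in 3813 other promoter regions with a mean between 14.7 and 24.3 CPM, the members' middle range.

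The middle of the fold change order was held by Rpl7a, Rps19 and Rpl24. Rpl7a (chr2:26909542-26911424) measured 21.4, 17.1 and 20.2 CPM at E14.5 and 16.5, 16.0 and 21.6 CPM at P0 with a log2 fold change of -0.11. Leaving out single libraries gave -0.28 (without P0 replicate 3) to -0.032 (without P0 replicate 2). The region also holds the start of Med22. The region listed for Rpl24 (chr16:55973279-55975413) measured 101, 96.3 and 102 CPM at E14.5 and 102, 58.0 and 119 CPM at P0 with a log2 fold change of -0.10. P0 replicate 2 was far below the other libraries there, and the value was 0.15 without it and -0.33 without P0 replicate 3. This region lies outside the RefSeq span of Rpl24 and holds the starts of Zbtb11 and Zbtb11os1. The start of Rpl24 lies in another region (chr16:55965494-55967342), listed under an identifier with no name, which measured 23.4, 22.5 and 23.4 CPM at E14.5 and 20.3, 18.6 and 27.2 CPM at P0 with a log2 fold change of -0.058.

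Per kilobase of region the members were close to the middle of all promoters. The median was 11.8 CPM per kb (quartiles 8.06 and 15.8), beside 12.8 in all promoter regions (8.97 and 21.4) and 8.89 in all regions. Their median width was 1788 bp, beside 1818 bp for promoters. The upper quartile of the members was thus below that of promoters at large; no test was made, because regions are not replicates.

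Rpl22l1 stood highest with 49.2 CPM per kb, above 95.1% of promoter regions. The Rpl24-listed region with the Zbtb11 start followed with 45.1, then Rps19 with 32.5, and Rpl30 was also among the 5 highest with 24.8 CPM per kb. The lowest levels belonged to Rpl8 (5.95) and Rplp1 (6.00 CPM per kb), at or under the 3.23rd percentile of promoters. Both were among the wider regions (2173 and 2677 bp), and a wide region with a narrow peak has a low value per kb.

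**Figure D3:**
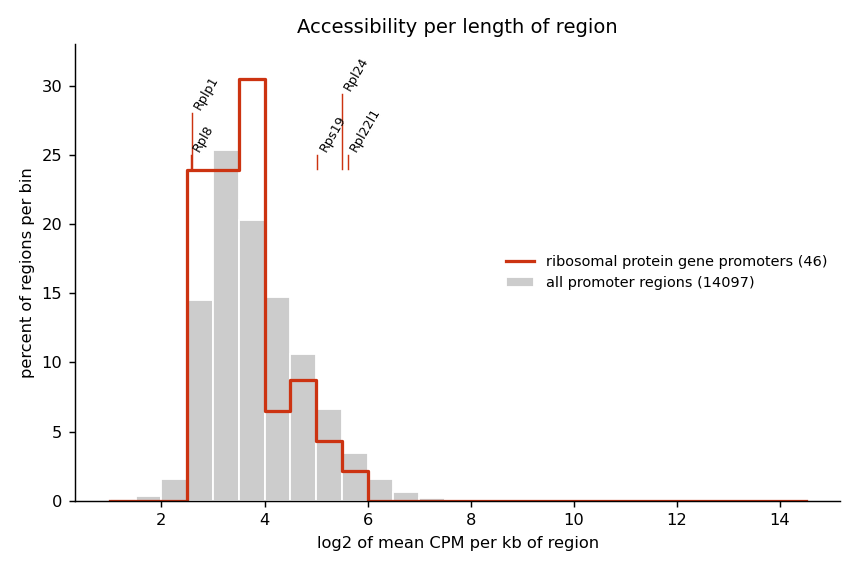
Distribution of mean CPM per kb over 6 libraries on a log2 axis, as percent of regions per bin, for all 14097 promoter regions (grey bars) and the 46 ribosomal protein gene promoter regions (red line), with 5 regions named. Most members lie between 2.5 and 4 on the log2 axis, where most promoters lie too, and the highest member is Rpl22l1 (49.2 CPM per kb, drawn as its log2).

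In 33 members the region held the RefSeq start of the named gene, among 35 members with a RefSeq window. These 33 reached a median of 772 bp upstream (165 to 1633) and 876 bp downstream (337 to 1644) of the start, and 23 of 33 extended further into the gene than away from it. All 46 regions were also listed as exon, like 93.8% of promoter regions. In 8 members the start of another gene lay inside. For the 27 that held the start of their own gene and of no other, the median log2 fold change was -0.074, with 0 called by edgeR (0.851% of promoter regions) and 1 at an unadjusted p under 0.05 (8.73%).

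**Figure D4:**
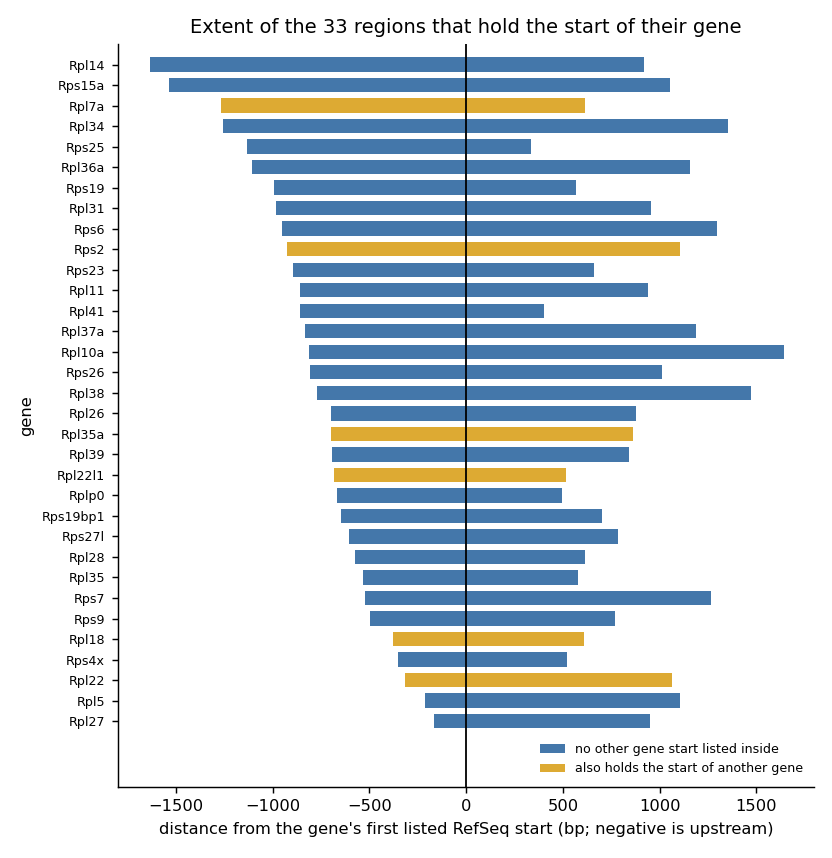
Extent of the 33 regions that hold the first listed RefSeq start of their gene, in bp from that start (negative is upstream), ordered by upstream reach; yellow bars also hold the start of another gene. Most bars reach further right than left (23 of 33), from 337 to 1644 bp into the gene.

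The name rule missed ribosomal protein promoters that the annotation lists under another gene. RefSeq windows were at hand for 68 protein-coding ribosomal protein genes: 32 starts lay in a region listed under that gene, 12 under a small nucleolar RNA, 9 under another gene, 5 under an identifier with no name, and 10 in no region. Many ribosomal protein genes host small nucleolar RNAs in their introns, and others share a start region with a neighbour, as Rpl15 with Nkiras1 and Rps28 with Ndufa7. Among the 10 with no region were the core genes Rpl4, Rpl6 and Rps10 and paralogs such as Rpl3l, Rpl10l and Rpl39l. The 26 regions so missed had a median log2 fold change of -0.10, with 0 called by edgeR (0.851% of promoter regions) and 0 at an unadjusted p under 0.05 (8.73%). The other tools were not counted over these regions.

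Rpl10, a large subunit protein added late in maturation, had its start in a region listed under Snora70 (chrX:74269762-74271854). It measured 26.3, 23.9 and 31.6 CPM at E14.5 and 27.3, 21.2 and 34.6 CPM at P0, with a log2 fold change of 0.030 (interval -0.43 to 0.49). Leaving out P0 replicate 3 gave -0.18 and leaving out P0 replicate 2 gave 0.18. Rpsa, also known as the laminin receptor, was listed under Snora62 (chr9:120126901-120129983) with 38.1, 25.1 and 29.3 CPM at E14.5 and 24.5, 27.1 and 25.2 CPM at P0. E14.5 replicate 1 was high and the other 5 libraries were close together, giving a log2 fold change of -0.27 (edgeR adjusted p = 0.521). It was -0.090 without that library and -0.41 without E14.5 replicate 2. Rps3, a small subunit protein at the mRNA entry, was listed under Snord15a (chr7:99482669-99484528) with 18.1, 14.8 and 13.7 CPM at E14.5 and 16.2, 12.6 and 18.9 CPM at P0. The stages overlapped and the log2 fold change was 0.043, between -0.12 (P0 replicate 3 left out) and 0.18 (P0 replicate 2 left out). The most accessible of the missed regions, singled out after their values were seen, were at the starts of Rpl15 (63.4 CPM per kb) and Rpl37 (53.4 CPM per kb), both above every member. Counted per region instead of per name, 58 regions held a ribosomal protein start, their median log2 fold change was -0.11, and edgeR called 0 (promoters 0.851%), with 2 at an unadjusted p under 0.05 (promoters 8.73%).

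Motifs were searched on both strands in the 300-base RefSeq windows (250 bases before to 50 after the start) of the 33 members, and compared with 10673 windows whose start lay in any promoter region here. A pyrimidine run (a C followed by at least 4 of C or T, read only on the strand of the gene) began within 10 bases of the start in 20 of 33 (60.6%), against 32.0% of those windows and 30.8% of all 27025 windows. The ETS motif CCGGAAG was present in 13 of 33 (39.4%), against 17.6% and 9.12%. YY1's AAGATGG was found in 5 (15.2%, against 6.83%), NRF1's GCGCATG in 4 (12.1%, against 7.22%) and the TATA box TATAAA in 5 (15.2%, against 6.41%). The SP/KLF box GGGCGG, in 21 windows, was about as common as in windows at promoter regions (63.6%, against 67.4%). In all windows it stood at 35.9%. CCAAT was less frequent (27.3%, against 39.8% at promoter regions and 37.9% of all windows). These are descriptions of letters: 33 windows are few, the comparison set contains the members, and no test was made.

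Reading the sequences drew attention to a CG-rich element, CTCGCGA, which was added to the search for that reason. It was present in 8 of 33 windows (24.2%: Rpl7a, Rpl26, Rpl35, Rpl37a, Rps6, Rps9, Rps15a and Rps19), against 4.42% of windows at promoter regions and 2.03% of all windows. In the sequence of Rps19 it occurs at a pair of places. The letters of CTCGCGA can overlap the end of a pyrimidine run and one base of CCAAT on the opposite strand. The YY1 motif on the opposite strand can overlap a pyrimidine run, as in Rps15a, and so can the GC box, as in Rpl35.

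The 26 windows of ribosomal protein genes in regions listed under another name were searched for the same letters. They held the run in 46.2%, ETS in 34.6%, CTCGCGA in 19.2%, YY1 in 11.5%, NRF1 in 11.5% and TATAAA in 3.85%. The run, ETS, CTCGCGA, YY1 and NRF1 were more frequent there than in promoter windows at large, and TATAAA was not. YY1 and NRF1 rest on 3 windows each. CTCGCGA was chosen after sequences were read, so its share here is not an independent check. CCAAT stood at 46.2% there, above the 39.8% of promoter windows. The GC content of the windows had a median of 57.0% in the members and 61.7% at promoter regions, with medians of 21 and 22 CpG dinucleotides.

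The fold changes of members with and without each motif are given as medians, with no test. Those with a pyrimidine run had a median log2 fold change of -0.093 and those without one -0.10. With and without the ETS match the medians were -0.069 and -0.11, and with and without CTCGCGA -0.11 and -0.074. For the GC box they were -0.079 (21 members) and -0.14, and for CCAAT -0.16 (9 members) and -0.071. The rarer motifs rest on 4 or 5 members: medians with and without were -0.29 and -0.079 for NRF1, -0.22 and -0.076 for YY1, and 0.081 and -0.11 for TATAAA.

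**Figure D5:**
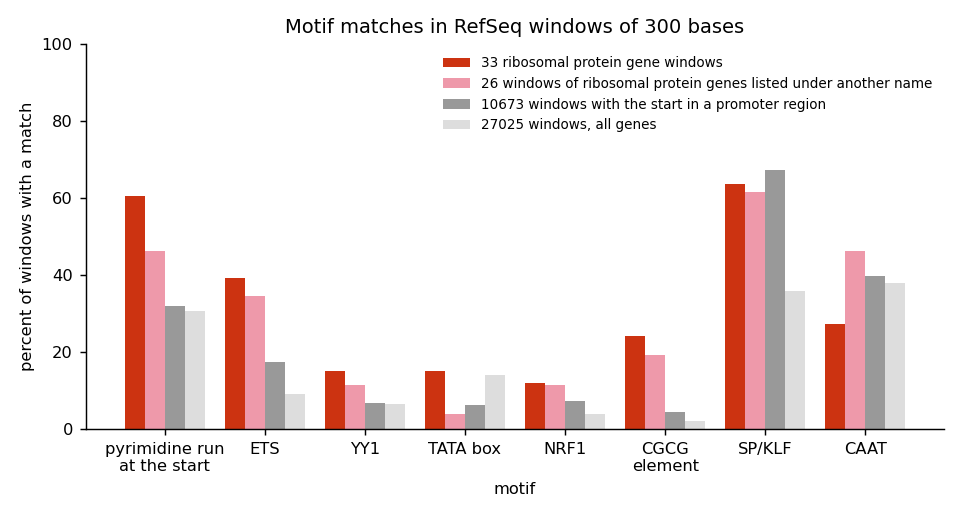
Percent of 300-base RefSeq windows with a match to each motif on either strand (the pyrimidine run on the gene's strand alone), for the 33 members that hold their own start, 26 ribosomal protein genes in regions listed under another name, 10673 genes whose start lies in a promoter region and all 27025 genes. The pyrimidine run (60.6% against 32.0%), ETS (39.4% against 17.6%) and the CGCG element CTCGCGA (24.2% against 4.42%) are more frequent in the red bars than in the grey ones, while SP/KLF is not.

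The deposited annotation also lists motif names per region. At least 1 was listed for 26 of 46 members (56.5%), beside 69.4% of promoter regions. E2F family names stood at 11 members (23.9%, beside 33.6%), Maz at 11 (23.9%, beside 38.1%) and Meis family names at 3 (6.52%, beside 2.74%). Sall1, a regulator of the nephron progenitor state, was listed at 3 (6.52%, beside 19.8%).

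Other genes of the ribosome and of translation gave like values, in lists written with earlier results in view. For mitochondrial ribosomal proteins, which serve the separate ribosome of that organelle, 57 regions had a median log2 fold change of -0.13. The other cytosolic ribosomal components gave -0.17 over 2 regions, ribosome biogenesis factors -0.17 over 33, and elongation factors and further TOP genes -0.11 over 10. In all 4 lists edgeR called 0. At an unadjusted p under 0.05 it counted 2, 0, 2 and 1 of them. Over promoter regions these shares were 0.851% and 8.73%. The elongation factor and TOP list was the most accessible, at a median of 27.3 CPM per kb against 11.8 for the ribosomal protein regions.

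The labelled cell type was set against promoter regions of marker genes. Nephron progenitor markers had one for 6 of 9 (Six2, Eya1, Sall1, Osr1, Wt1 and Gdnf, but not Cited1, Itga8 or Meox1), with summed levels of 169 to 180 CPM at E14.5 and 142 to 193 CPM at P0. Of stromal markers 2 of 7 had a region (44.3 to 61.7 and 45.7 to 61.3 CPM), of endothelial markers 2 of 7 (46.5 to 53.2 and 43.4 to 54.5 CPM) and of ureteric markers 4 of 7 (96.5 to 112 and 91.1 to 96.1 CPM). Immune, red blood cell and neural markers had a promoter region for 0 of 5, 0 of 4 and 0 of 3. Open promoters do not by themselves show expression, and in a bulk library fewer cells with an open region and less openness per cell cannot be told apart. The part of cell composition in the members' values was not tested.

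In the authors' deposited table all 46 members are classed as Stable between the stages. The share of all promoter regions in that class was not counted, so this does not set the members apart from other promoters. Its lowest adjusted p for a member is 0.234 and its median log2 fold change is -0.075.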

How the data were processed

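ATAC-seq was analysed in 6 libraries, 3 per stage, grouped and numbered by their source names. The authors deposited a table of whole-number counts per region, per the file headers, with their own log2 fold change, score, p-value and classes, which were used only where named. The genome build was mm10, per the submitters' processing notes. Aligner, peak caller, handling of multi-mapping and duplicate reads and Tn5 shift are not given in the sources used here; reads in exons near-identical to pseudogene copies may thus be uncertain.

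Of 45489 rows, 1966 repeated a region and were dropped. Promoter identifiers were named through the table's 28296 identifier-name pairs. Depth was 6492996 to 12292629 counts in regions, and members' counts were 39 to 1508 per library. edgeR 4.0.16 (R 4.3.3) fitted all regions with TMM scaling, filterByExpr (0 regions removed) and a stage term alone, with Benjamini-Hochberg adjustment of the computed p-values over all regions. The biological coefficient of variation was 0.211. Standard errors were the log2 fold change over the square root of F, and intervals used the t quantile of the fit's degrees of freedom. DESeq2 1.42.0, limma 3.58.1, other scalings and filters, and leaving out each library were alternatives. The test was tried on simulated data. Shares carry 95% Wilson intervals, which cover counting error only. The labels call the libraries biological replicates, each pooled from 1 litter.

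Named regions were the 5 highest and 5 lowest fold changes, the 5 highest and 3 lowest levels per kb, the 3 widest and 3 tightest spreads, the 3 middle fold changes and 12 preset genes, apart from items that are not reported here; Rpl21, Rpl18 and the missed regions of other genes were named after their values were seen. Members and lists were chosen with earlier results of these data known. Sequences and gene starts came from RefSeq tables (GRCm38.p6).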

Additional observations from a re-analysis of the deposited data

How the results depend on the processing

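In all 16 refits, at thresholds of 0.1 and 0.01 and with each other choice of members, 0 ribosomal protein gene promoter regions were called. The count at an unadjusted p under 0.05 ran from 0 to 5, and the lowest adjusted p was 0.108 (edgeR, without E14.5 replicate 2). Leaving out single replicates gave medians of -0.27 to -0.014 and share differences of -0.0125 to 0.0071 percentage points. Over all regions 2059 were called; this became 885 with scaling over promoters, 878 when each library had to hold 50 counts, 539 at 0.01, 3490 at 0.1 and 339 to 2987 when one replicate was left out.

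Of 381 values of 24 named regions under alternatives, 351 kept their sign, 30 at 10 regions did not, and 0 passed the threshold. The refit with no filter repeats the main fit, because the filter removed 0 regions. Its values are among those that kept their sign. Scaling over promoters turned Rpl38 to 0.072, Rpl41 to 0.0044 and Rplp1 to 0.050, and total-count scaling turned Rpl38 to 0.024. Rpl5 became -0.0031 with DESeq2's Wald test, -0.0033 with its size factors, -0.015 with the replicate block and -0.010 without the 10 largest regions. Rps19bp1 became -0.0041, -0.045 and -0.0048 with the Wald test, the block and without those 10. Leaving out single replicates gave -0.18 to 0.18 for Rpl10, -0.0055 to 0.22 for Rpl22l1, -0.33 to 0.15 for Rpl24, -0.46 to 0.14 for Rpl41, -0.16 to 0.11 for Rpl5, -0.37 to 0.12 for Rps19, -0.20 to 0.25 for Rps19bp1 and -0.12 to 0.18 for Rps3. The causes were not tested.

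Same-numbered libraries correlated at 0.067, -0.14 and 0.077 in their deviations, so the numbers were not taken as pairs. With the replicate block 0 members and 1834 regions were called, the members' median was -0.14 and 4 had an unadjusted p under 0.05. Restricting members to regions with no other promoter gene could not be run from the table, which lists 1 per region; RefSeq starts were used instead, a choice made after seeing the data.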
